A study of Mus musculus with 12 samples.

Results

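The respiratory chain genes encoded in the nucleus were examined in mouse alveolar macrophages after repeated ozone inhalation. Members were all rows of the deposited expression table whose symbol begins with Nduf, Uqcr, Cox4i, Cox5, Cox6, Cox7, Cox8 or Atp5, together with Sdha, Sdhb, Sdhc, Sdhd and Cyc1. Symbols that end in exactly -ps and 8 further rows with 1 identical value in every mouse were left out, while Cox7c-ps1, a pseudogene symbol with a number after -ps, stayed in. The rule used no difference between the groups. It gave 96 of the 25444 rows that varied between mice, and 91 of them were among the 19633 rows that could be tested. Both groups were female C57BL/6NJ mice of 8 to 11 weeks. They breathed filtered air or ozone at 0.8 ppm for 4 h a day on 4 days in a row, and lungs were taken 3 days after that. Each group held 6 mice, and macrophages were flow-sorted in 2 batches with 3 mice of each group in each. Polyadenylated RNA was sequenced from a stranded library, 1 library per mouse.

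The respiratory chain sits in the inner mitochondrial membrane. Complex I takes electrons from NADH and complex II takes them from succinate, and both pass them to ubiquinone. Complex III hands them on to cytochrome c, and complex IV delivers them to oxygen. Protons pumped on the way drive complex V, the ATP synthase. Most subunits are nuclear genes whose proteins are imported, while a small core is encoded by mitochondrial DNA. Resident alveolar macrophages, which live on surfactant lipid, depend on fatty acid oxidation and this chain for much of their energy.

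All 12 resident alveolar macrophage markers lay above the shared minimum in all 12 mice. The shared minimum is a gene's lowest value in a flow-sort batch where more than 1 mouse holds it. Of these markers 4 passed the test between the groups (Ear1, Chil3, Krt79 and Car4), against 4.25% of all tested rows. The mean of all 12 markers was 0.0347 higher after ozone (SD 0.0675 after ozone and 0.0738 after air). That mean does not give the direction of the 4. Among 13 lists of markers of other cells, no tested gene passed. All listed markers of monocytes, dendritic cells, B cells, T cells and NK cells also lay above the shared minimum in all 12 mice. So did those of alveolar type 1 and type 2 cells, airway epithelium, endothelium and fibroblasts. Lying above the minimum therefore does not set the macrophage markers apart. The eosinophil gene Epx was at 1 value throughout, and Prg2, Ly6g, Ngp, Hba-a2 and Alas2 were at the shared minimum in some mice. The table holds no counts, and 6 mitochondrially encoded genes are also at 1 value in every mouse, so a value at the minimum is not read here as absent RNA. The mean of the 4 B cell markers was below the air mean in all 6 ozone mice, from -0.285 to -0.149, and from -0.229 to 0.342 in the air mice. Its part in the results was not tested. RNA integrity numbers were 9.2 to 9.7 after ozone and 8.9 to 9.7 after air. Between 19475 and 20438 rows lay above the shared minimum in each ozone mouse and between 19719 and 20144 in each air mouse. The total number of reads is not known from the table. Values are on a log2 scale and were expressed relative to the average of the air mice for that gene, so levels cannot be compared between genes. In sorted bulk samples fewer cells of a type and less RNA per cell cannot be told apart.

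The sequence before the start site is shown for members that hold an element known from nuclear genes of the respiratory chain. Whether it bears on the values that follow was not tested. RefSeq promoter windows on build GRCm38.p6, from 250 bases before to 50 after the start site, were matched for 75 members, 74 of them tested. The exact palindromic element of the nuclear respiratory factor NRF1, the 10 capital letters in the stretches printed here, which read the same on both strands, was found in 7 of the 74 tested members (9.46%) and in 2.00% of 12675 tested genes with a window. In 5 of the 7 members the match lay before the start site, and 100 bases of each of those are printed 5′ to 3′ on the gene's own strand, with the element in capitals.
Ndufa11 (chr17:56717637-56717736, + strand): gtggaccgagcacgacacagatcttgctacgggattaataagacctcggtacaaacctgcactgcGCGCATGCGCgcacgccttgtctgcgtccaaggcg
Ndufaf4 (chr4:24897905-24898004, + strand): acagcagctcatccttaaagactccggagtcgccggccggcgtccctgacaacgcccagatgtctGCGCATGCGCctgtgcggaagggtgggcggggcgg
Cox6a1 (chr5:115349086-115349185, - strand): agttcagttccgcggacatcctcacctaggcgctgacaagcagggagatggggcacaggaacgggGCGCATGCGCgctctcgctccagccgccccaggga
Atp5g2 (chr15:102671055-102671154, - strand): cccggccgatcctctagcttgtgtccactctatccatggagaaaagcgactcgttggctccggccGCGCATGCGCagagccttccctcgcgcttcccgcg
Atp5k (chr5:108434415-108434514, - strand): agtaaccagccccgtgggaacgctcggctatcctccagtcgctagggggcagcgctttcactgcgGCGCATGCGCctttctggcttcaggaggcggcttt
The printed stretches hold an accessory subunit of complex I, a complex I assembly factor, a subunit of complex IV and 2 subunits of complex V. Counted from the start site, the element began at position -60 in Ndufa11, -113 in Ndufaf4, -162 in Cox6a1, -42 in Atp5g2 and -50 in Atp5k. The other matches, in Ndufaf5 and Uqcrc1, began 16 and 30 bases after it.

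Other letters were searched on both strands of the same windows. AAGATGGC, from the YY1 site, was found in 11 of the 74 members (14.9%) and in 4.55% of all tested genes with a window. Of its 11 copies in members 9 began after the start site, at most 38 bases into the transcript. TCAAGGTCA, from the site of the estrogen-related receptors, was found in 2 members, Atp5g3 and Sdhd, and in 0.331% of all. CCGGAAGT, from the site of the ETS factor GABPA, was found in 5 members (6.76%) and in 7.86% of all, and the TATA box TATAAA in 6 (8.11%) and 9.88%. A match is a run of letters and not a measured binding site. A single window was listed for 93.2% of the members and 80.5% of all tested genes with one, so all genes had more sequence in which to hold a match. The median difference after ozone was 0.0132 for members with the NRF1 letters and 0.0275 for those without them. It was 0.0348 with the YY1 letters and 0.0232 without, 0.0433 and 0.0247 for GABPA, 0.0456 and 0.0259 for the estrogen-related receptors, and 0.0188 and 0.0259 for the TATA box. These are descriptions of few genes and were not tested.

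Ozone was compared with filtered air to ask which genes differed in the macrophages 3 days after the exposures. No respiratory chain gene passed the test: 0 of 91 members had an adjusted p under 0.05 in limma, against 834 of all 19633 tested rows (4.25%), of which 473 were higher (2.41%) and 361 lower (1.84%). At an unadjusted p under 0.05 there were 7 members, 5 with a positive and 2 with a negative difference, against 16.7% of all tested rows (8.43% higher and 8.29% lower). Differences ran from -0.132 in Ndufaf4 to 0.139 in Cox5a. The median half-width of the 95% interval was 0.107 for members and 0.1005 over all tested rows. Among called rows the median size of the difference was 0.253, and the 95% intervals of 89 of the 91 members lay wholly inside that size in both directions, as did those of 16900 of all 19633 tested rows. The exceptions were Ndufaf4 and Atp5l, whose intervals reached -0.260 and -0.258. The smallest called difference was 0.121 in size. Cox5a and Ndufaf4 exceeded it without passing, and the intervals of many members reached past it, so changes of that size are not excluded.

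Small positive differences were the rule. Of the members, 64 had a positive difference and 27 a negative one (70.3% positive, against 48.0% over all tested rows). The median was 0.0232, against -0.00326 over all tested rows. This median rested on 1 mouse: without ozone mouse 1 it was -0.00902, and without ozone mouse 6 it was 0.0553. Without ozone mouse 1 the medians of complexes I, III, IV and V were also below 0 (-0.00858, -0.00643, -0.00347 and -0.0110). With ozone mice 1 and 6 both left out, a choice made after seeing the data, it was 0.0210 and again 0 members passed.

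**Figure D1:**
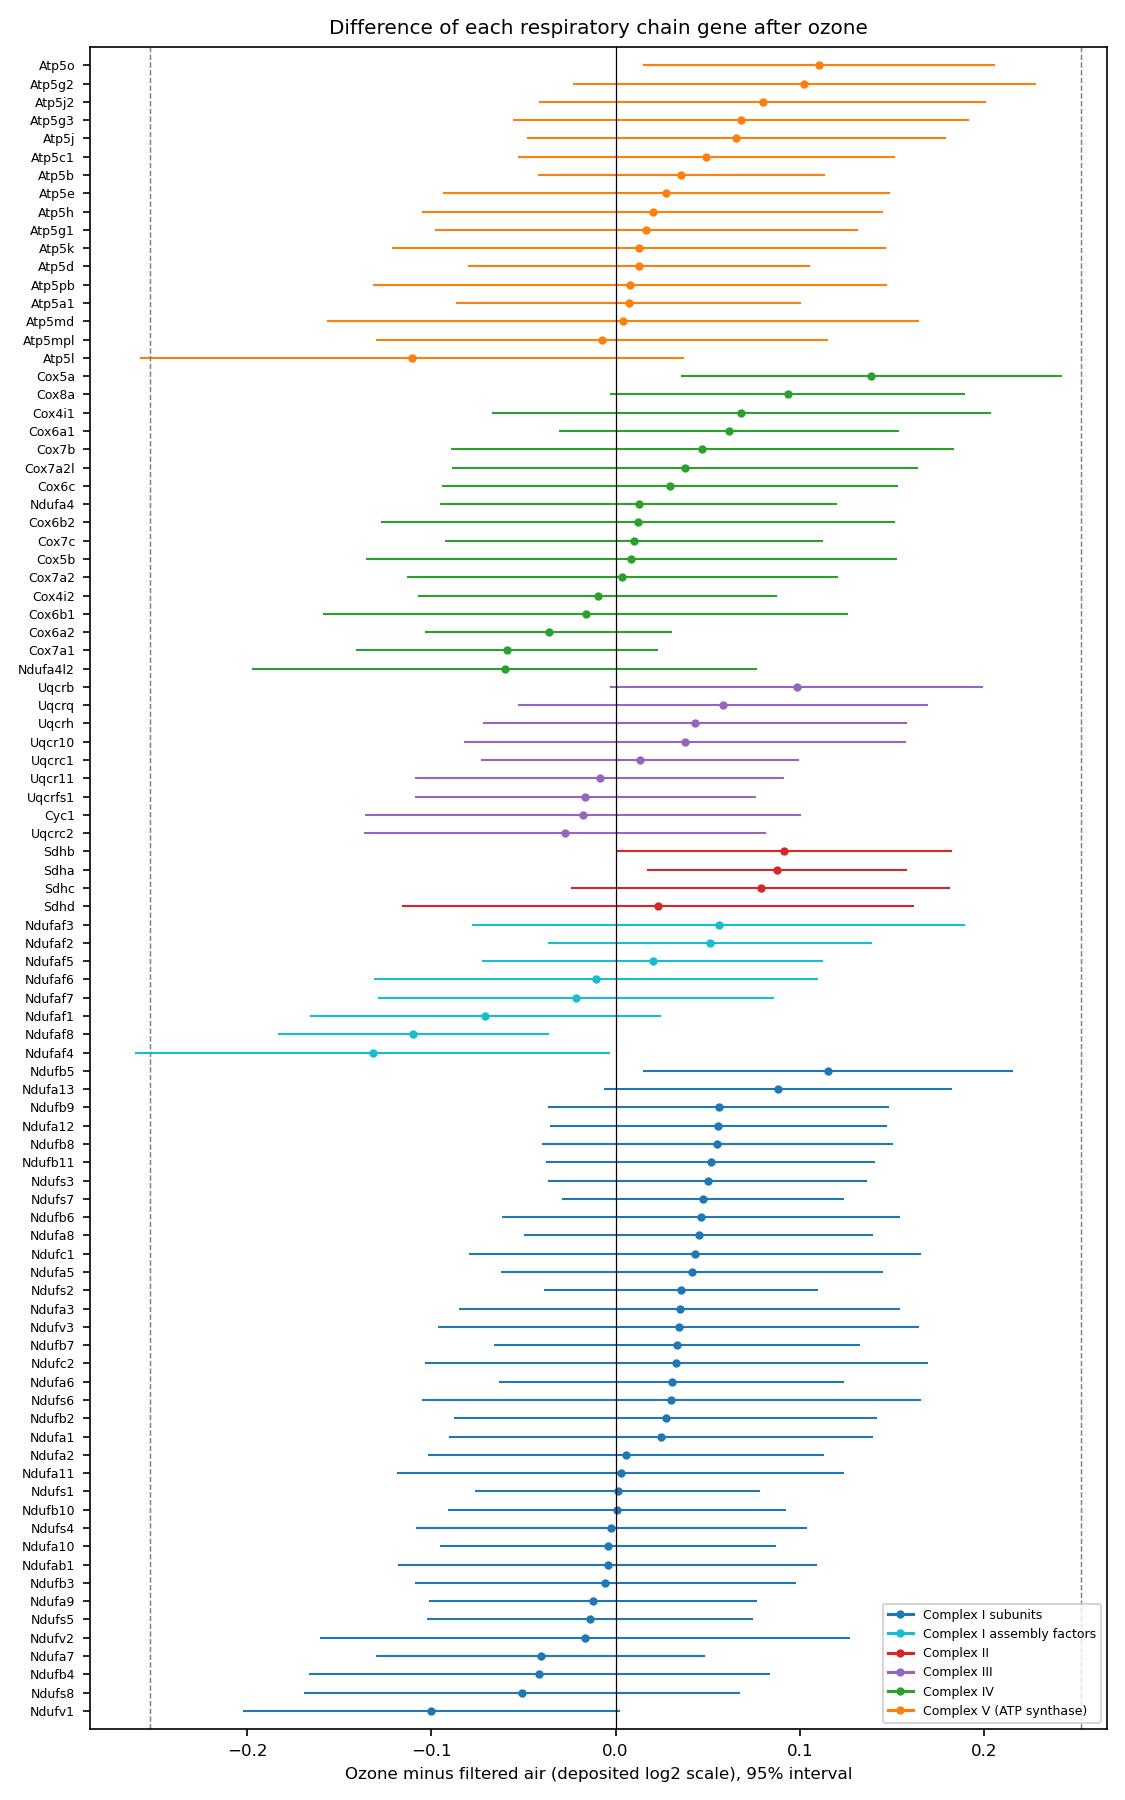
Ozone minus filtered-air difference of each of the 91 tested genes on the deposited log2 scale (points) with its 95% interval from limma (lines), coloured by complex and ordered by size within each. Dashed lines mark 0.253 in both directions, the median size among called rows; only the intervals of Ndufaf4 and Atp5l reach past them.

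Complex I was represented by 36 tested subunits with a median difference of 0.0304, 25 positive and 11 negative. The 7 core subunits, which hold the flavin and iron-sulfur centres, had a median of 0.00121. The 29 accessory subunits, which surround that core, had a median of 0.0304. Ndufb5, an accessory subunit of the membrane arm, had the largest positive difference. Its values were -0.109, 0.0400 and 0.0794 (lowest, median and highest) after air and 0.0112, 0.122 and 0.221 after ozone. The groups overlapped, with 4 air mice above the lowest ozone mouse. The difference was 0.115 (SE 0.0466, limma adjusted p = 0.215, n = 6 a group).

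Ndufv1, the core subunit that binds NADH and the flavin, had the most negative difference of the complex. It ran from -0.153 through a median of 0.0356 to 0.0629 after air, and from -0.205 through -0.0918 to -0.0134 after ozone. All 6 ozone mice were below the air mean, but 2 air mice fell within their range. The difference was -0.100 (SE 0.0475, limma adjusted p = 0.309). Its partner in the NADH-binding module, Ndufv2, had the widest spread of any member after ozone, from -0.229 in mouse 6 to 0.257 in mouse 1 (SD 0.161), with a difference of only -0.0168 (limma adjusted p = 0.942). Ndufs1, which carries iron-sulfur clusters of the same arm, differed by 0.00121 (SE 0.0359).

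The 8 complex I assembly factors, which build the complex and are not part of it when finished, had a median of -0.0161 (0.0000600 without air mouse 6), with 5 of 8 negative beside 10210 of all 19633 tested rows. They were not tested against the subunits. Both members with a negative difference at an unadjusted p under 0.05 were among them. Ndufaf8, which acts with the methyltransferase-like factor Ndufaf5, lay between -0.0371 and 0.0420 after air (median -0.00445). After ozone it lay between -0.153 and -0.0537 (median -0.120). Every ozone mouse was below every air mouse. Groups without overlap were found for 2 of the 91 members, Ndufaf8 and Sdha, against 3.53% of all tested rows. The difference was -0.110 (SE 0.0341, limma adjusted p = 0.0925), and it was -0.114 in the first and -0.106 in the second flow-sort batch. It had the smallest p of all members and is singled out after its values were seen.

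Ndufaf4, which helps to assemble the ubiquinone-binding module, ran from -0.0546 through -0.0118 to 0.108 after air. After ozone it ran from -0.309 through -0.117 to 0.0488. The ozone group was more spread (SD 0.143 against 0.0573), with mice 5 and 6 far below the rest and mouse 2 above 5 of the 6 air mice. The difference was -0.132 (SE 0.0600, limma adjusted p = 0.282), and -0.0709 without ozone mice 1 and 6. Its partner Ndufaf3 had the largest positive difference of the assembly factors, 0.0560 (SE 0.0622, limma adjusted p = 0.734), and was at 0.0158 without air mouse 6 and at -0.00656 in the first flow-sort batch alone.

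**Figure D2:**
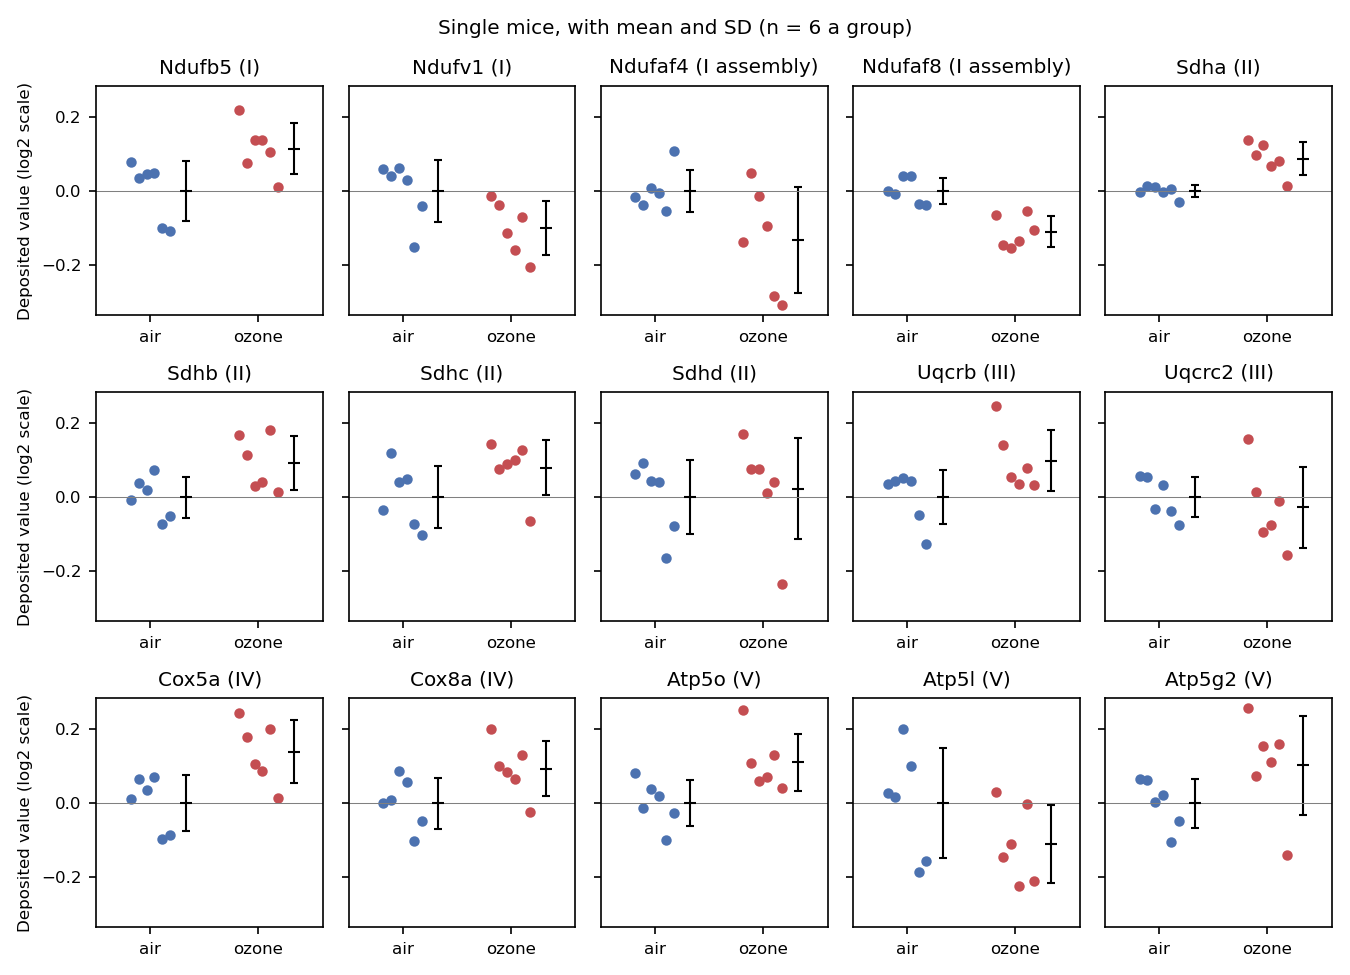
Deposited log2 values of 15 respiratory chain genes in single mice (points; 6 filtered-air and 6 ozone mice) with group mean and SD (bars), the complex given in each title. Ndufaf8 and Sdha are the genes whose groups do not overlap; ozone mouse 1, the leftmost red point of each panel, is the highest of the 12 mice for Ndufb5, Uqcrb, Cox5a, Atp5o and others.

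Complex II, the succinate dehydrogenase shared with the tricarboxylic acid cycle, was the only complex with positive differences in all of its genes, 4 of 4, and its median was 0.0833. None passed the test. Sdha, the flavoprotein that oxidizes succinate, was tightly held after air, from -0.0284 to 0.0143 (median 0.00253, SD 0.0157). After ozone it ran from 0.0146 to 0.140 (median 0.0899, SD 0.0447). The groups did not overlap, though the lowest ozone mouse, mouse 6, was only just above the highest air mouse. The difference was 0.0877 (SE 0.0327, limma adjusted p = 0.171). Sdha, too, is singled out after its values were seen.

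Sdhb, the iron-sulfur subunit that receives the electrons, ran from -0.0730 through 0.00545 to 0.0738 after air and from 0.0145 through 0.0782 to 0.181 after ozone. The groups overlapped, and the difference was 0.0917 (SE 0.0422, limma adjusted p = 0.291). The membrane anchors Sdhc and Sdhd, which form the ubiquinone site, differed by 0.0789 (SE 0.0478) and 0.0232 (SE 0.0647), with limma adjusted p of 0.458 and 0.911. Ozone mouse 6 was the lowest of the 12 for Sdhd, at -0.236. In the second batch alone Sdhd had the opposite sign, -0.0150, as it had without air mouse 5, -0.0133.

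In complex III 5 of 9 genes had a positive and 4 a negative difference, with a median of 0.0132. Uqcrb, the small subunit near the ubiquinone site, ran from -0.126 through 0.0397 to 0.0522 after air and from 0.0335 through 0.0667 to 0.246 after ozone. The upper end was ozone mouse 1, and the groups overlapped. Its difference was 0.0984 (SE 0.0471, limma adjusted p = 0.313), and 0.0657 without ozone mouse 1. Uqcrc2, a core structural subunit, had the most negative difference, -0.0276 (SE 0.0507, limma adjusted p = 0.854), and was at 0.00137 without ozone mouse 6. The electron carriers of the complex, cytochrome c1 (Cyc1) and the Rieske iron-sulfur protein (Uqcrfs1), differed by -0.0179 (SE 0.0550) and -0.0163 (SE 0.0431).

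Complex IV had 20 members, Cox7c-ps1 among them, of which 17 could be tested, 12 positive and 5 negative with a median of 0.0121. Cox5a, an early-assembling subunit on the matrix side, had the largest difference of all members. Air mice ran from -0.0979 through 0.0239 to 0.0718, and ozone mice from 0.0148 through 0.143 to 0.245. All 6 ozone mice were above the air mean, and mouse 6 was the single ozone mouse inside the range of the air mice. The difference was 0.139 (SE 0.0480, limma adjusted p = 0.136), 0.115 without ozone mouse 1 and 0.145 without mice 1 and 6. Cox5b, its zinc-binding neighbour, differed by 0.00862 (SE 0.0670).

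Several complex IV subunits exist as a common and a tissue-restricted isoform. The common Cox4i1 differed by 0.0684 (SE 0.0630) and the lung-enriched, oxygen-responsive Cox4i2 by -0.00974 (SE 0.0452). Cox6a1 differed by 0.0615 (SE 0.0428) and the striated-muscle form Cox6a2 by -0.0363 (SE 0.0311). The same order held for Cox7a2 at 0.00370 (SE 0.0545) beside the muscle form Cox7a1 at -0.0589 (SE 0.0381), and for Ndufa4 at 0.0126 (95% interval -0.0946 to 0.1197) beside its paralog Ndufa4l2 at -0.0602 (-0.197 to 0.0765). Cox6b1 at -0.0163 (SE 0.0662) and the testis form Cox6b2 at 0.0121 (SE 0.0649) had the reverse order. Cox8a differed by 0.0934 (SE 0.0448, limma adjusted p = 0.314), while its muscle counterpart Cox8b was at the shared minimum in 10 of 12 mice. All tested isoform genes lay above it in all 12 mice. None of them passed the test, and their limma adjusted p lay between 0.314 for Cox8a and 0.986 for Cox7a2. Differences between isoforms were not tested. The signs of Cox4i2, Cox6b1, Cox6b2, Cox7a2 and Ndufa4 turned when single mice were left out. Without ozone mouse 1 the difference of Cox4i1 was 0.0309, and without air mouse 5 those of Ndufa4l2 and Cox6a1 were -0.0156 and 0.0396.

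Complex V had 17 tested genes, 15 positive and 2 negative, with a median of 0.0202 that was -0.0110 without ozone mouse 1. Atp5o, the stalk subunit that ties the catalytic head to the membrane part, ran from -0.101 through 0.00301 to 0.0829 after air. It ran from 0.0403 through 0.0904 to 0.253 after ozone, and 1 air mouse lay inside the ozone range. The difference was 0.110 (SE 0.0444, limma adjusted p = 0.212), and 0.0788 without ozone mouse 1. The catalytic subunits Atp5a1 and Atp5b differed by 0.00708 (SE 0.0435) and 0.0357 (SE 0.0361). The genes Atp5g1, Atp5g2 and Atp5g3, which encode the same mature subunit of the rotor ring, differed by 0.0166 (SE 0.0533), 0.103 (SE 0.0584) and 0.0681 (SE 0.0575).

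Atp5l, a small subunit of the membrane part, was the gene of complex V with the most negative difference and had the widest spread of all members after air. Air mice ran from -0.187 in mouse 5 through a median of 0.0217 to 0.200 in mouse 3 (SD 0.149), and ozone mice from -0.223 through -0.129 to 0.0306 (SD 0.106). The groups overlapped over most of their range. The difference was -0.111 (SE 0.0687, limma adjusted p = 0.472), and -0.0664 without air mouse 3.

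**Figure D3:**
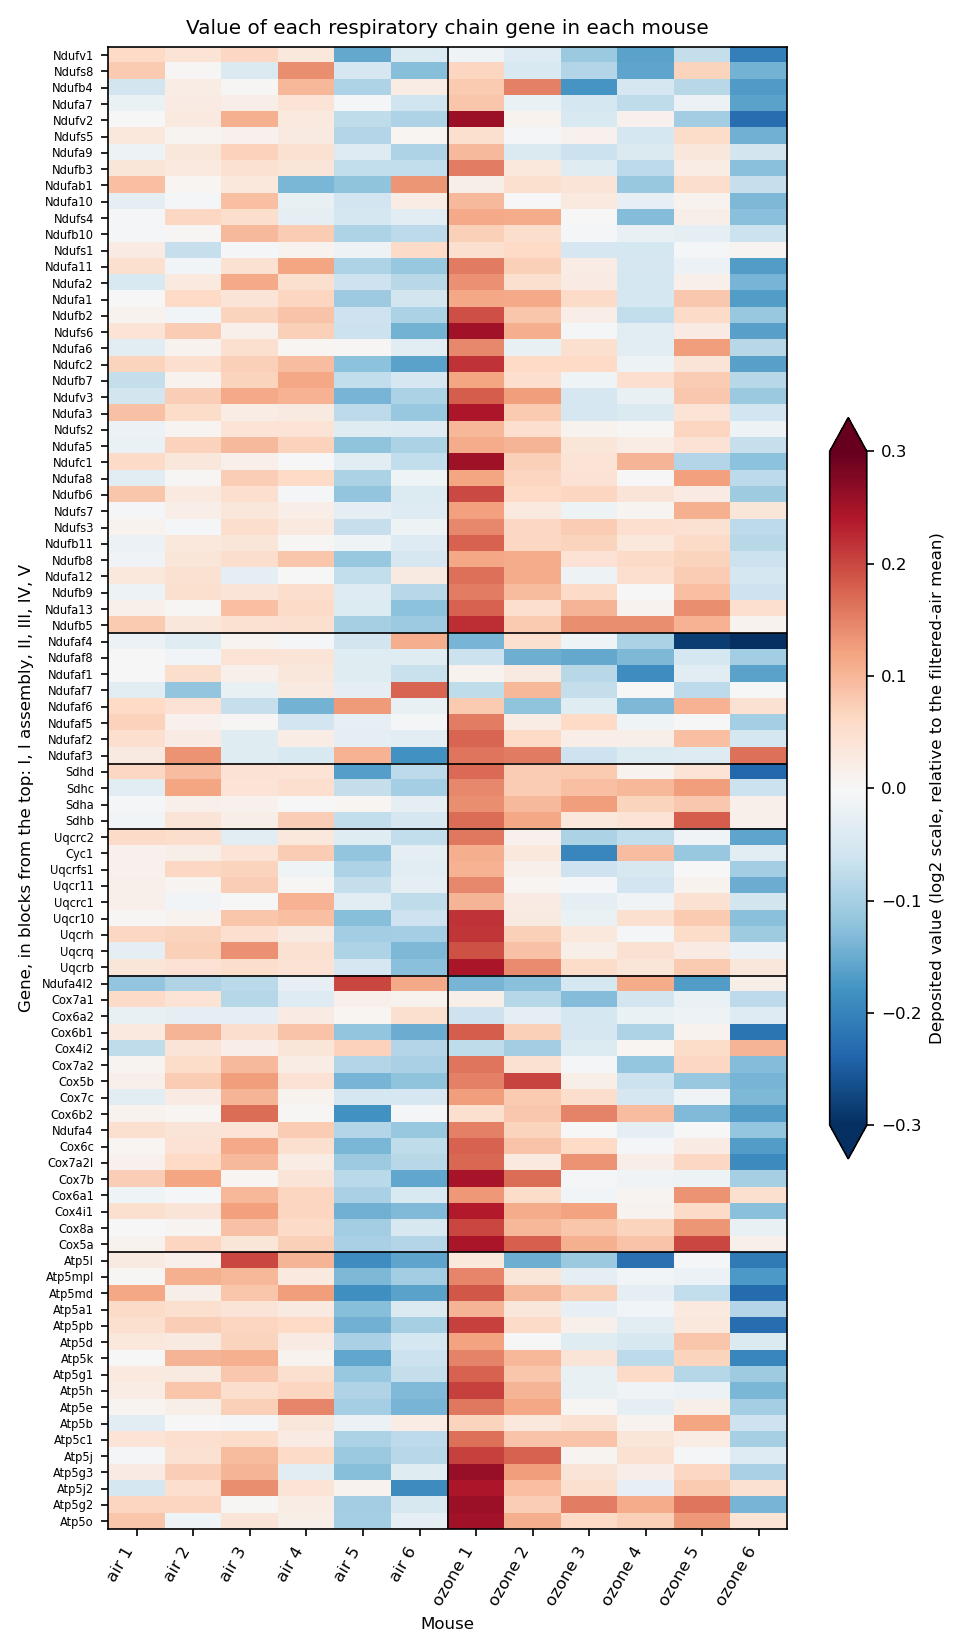
Deposited log2 value of the 91 tested genes (rows, in blocks by complex) in each of the 12 mice (columns, air left and ozone right), red above and blue below the filtered-air mean, with the scale ending at 0.3 in both directions. Whole columns share a colour: ozone mouse 1 has 84 of 91 genes above 0, while air mice 5 and 6 and ozone mouse 6 have 9, 12 and 15.

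Mice of the same group differed from each other across nearly the whole chain. The mean of the 91 genes was 0.135 in ozone mouse 1, 0.0550 in mouse 2, 0.00657 in mouse 3, -0.0142 in mouse 4, 0.0274 in mouse 5 and -0.0915 in mouse 6. It was 0.0141, 0.0327, 0.0495 and 0.0373 in air mice 1 to 4 and -0.0728 and -0.0607 in air mice 5 and 6. The ozone group held both the highest and the lowest of the 12 means, and it spanned the whole air group. The group means differed by 0.0196, with an SD of 0.0751 after ozone and 0.0531 after air. Ozone mouse 1 had the highest mean of the 12 in all 6 blocks (the 5 complexes and the assembly factors). The lowest was air mouse 5 in complexes II, III and V, ozone mouse 6 in complexes I and IV, and ozone mouse 4 for the assembly factors.

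The spread within groups was wider after ozone for 71 of the 91 members (78.0%), against 51.4% of all tested rows. The share was 94.4% for the cytosolic ribosome, 74.4% for the mitochondrial ribosome and 71.4% for import and membrane structure, and 18 of 24 genes of the tricarboxylic acid cycle were wider after ozone. In the other 5 lists it lay between 57.1% and 61.5%. The median SD of members was 0.0910 after ozone and 0.0738 after air. This was a description over genes that share the same 12 libraries, and the difference in spread was not tested.

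Of 9 lists of related genes, ozone mouse 1 had the highest mean in 6 and ozone mouse 6 the lowest in 5. The 90 tested cytosolic ribosomal protein genes had a mean of 0.164 in ozone mouse 1 and -0.195 in ozone mouse 6, again the highest and the lowest of the 12, and 78 mitochondrial ribosomal protein genes had 0.0912 and -0.0500. The 19 regulators of mitochondrial gene expression ran the other way, at -0.0250 in ozone mouse 1 and 0.0407, their highest mean, in ozone mouse 6. The 13 genes of carriers, uncoupling and superoxide removal had their highest mean in air mouse 4, 0.0607. Ozone mice 1 and 6 also had the fewest rows above the shared minimum, 19538 and 19475, while their RNA integrity numbers were 9.4 and 9.5. The 12 resident macrophage markers had their highest mean in ozone mouse 1, 0.158, and were at -0.0373 in ozone mouse 6. Their summed values ran from -1.08 to 1.27 in air mice and from -0.448 to 1.90 in ozone mice. The 4 endothelial markers, all tested, averaged -0.363 in ozone mouse 1, the lowest of the 12, and 0.310 in ozone mouse 6. Their sums ran from -1.29 to 1.42 after air and from -1.45 to 1.24 after ozone. The 4 fibroblast markers, also all tested, were highest in ozone mouse 6, at 0.412, with sums of -0.363 to 0.426 after air and -0.611 to 1.65 after ozone. The 4 red cell markers were highest in ozone mouse 1 as well, at 0.381, with sums of -0.429 to 0.640 after air and -0.287 to 1.52 after ozone. The part of any of these in the spread of the respiratory chain genes was not tested.

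**Figure D4:**
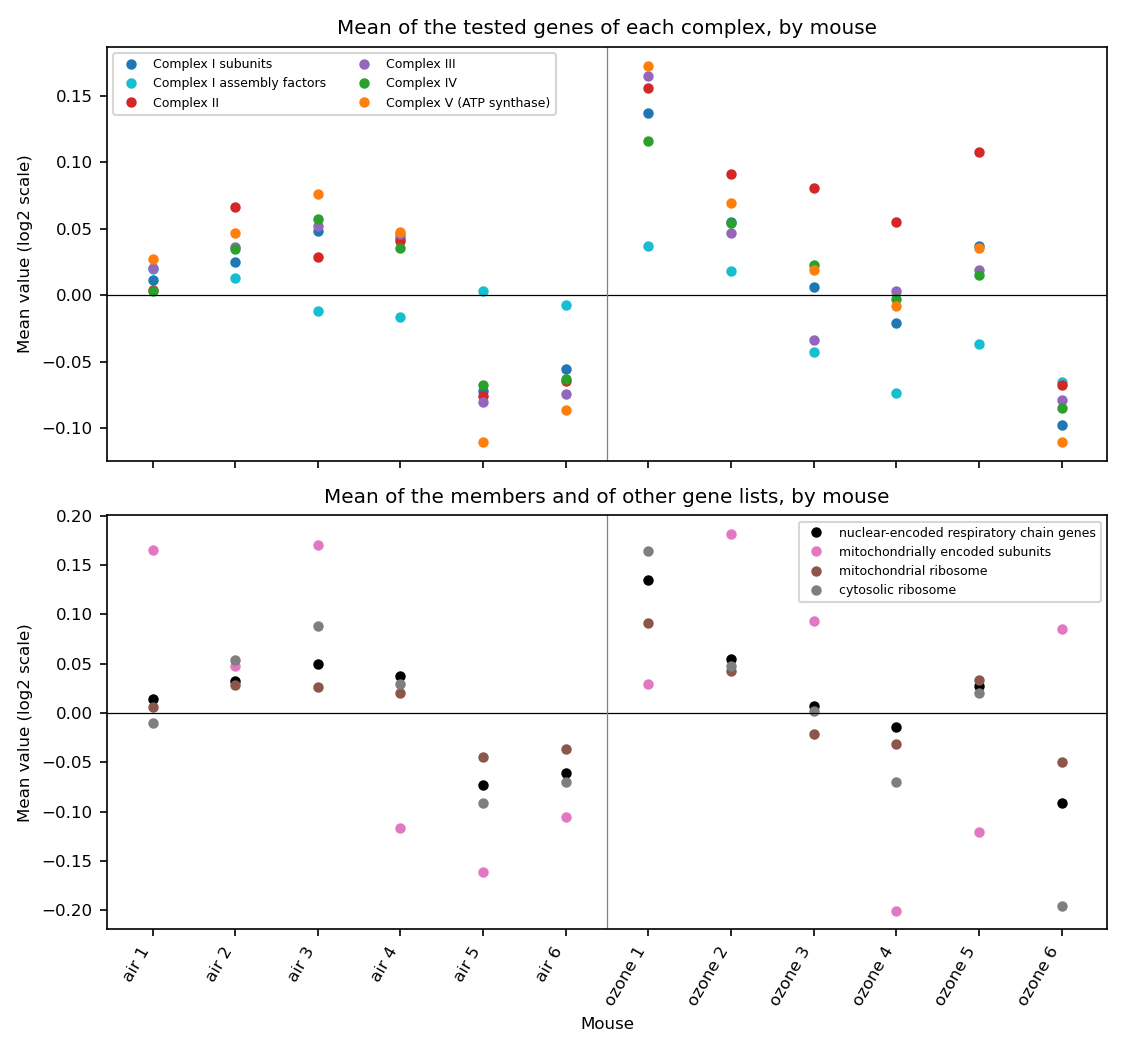
Mean log2 value per mouse of the tested genes of each complex (upper panel) and of all 91 members beside mitochondrially encoded subunits and both sets of ribosomal protein genes (lower panel). Ozone mouse 1 is highest in every complex; the mitochondrially encoded subunits take another order, highest in ozone mouse 2 (0.181) and lowest in ozone mouse 4 (-0.201).

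Within the first batch the median difference was 0.0267 and within the second 0.0114, each from 3 mice against 3. Of the 91 members 67 had the same sign in both (73.6%, against 63.7% of all tested rows). The medians in the first and second batch were 0.0201 and 0.00779 for complex I, 0.1002 and 0.0424 for complex II, 0.0267 and 0.00233 for complex III, 0.0128 and 0.0159 for complex IV and 0.0299 and 0.0129 for complex V. The assembly factors had medians of -0.0349 and -0.0179, and 4 of 8 had the same sign in both batches. No member had a batch-dependent difference at an unadjusted p under 0.05 (interaction term in limma, against 2.60% of all tested rows), and with adjustment 0 of 19633 rows passed (0.00%).

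**Figure D5:**
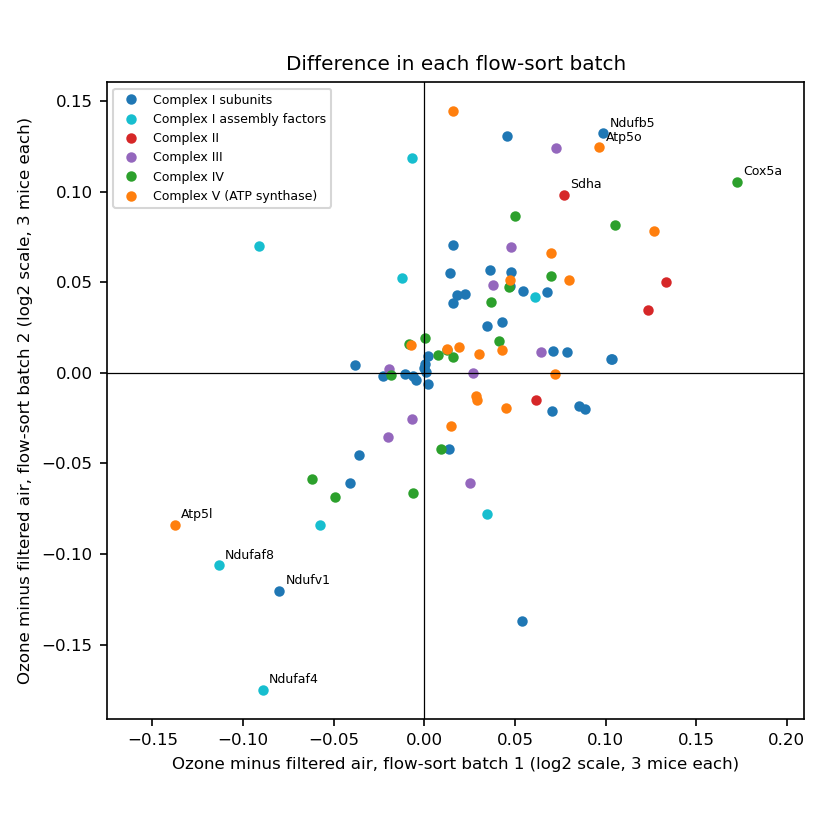
Ozone minus filtered-air difference (log2 scale) of each tested gene in flow-sort batch 1 (horizontal) and batch 2 (vertical), 3 mice against 3 in each, coloured by complex. Ndufaf8, Ndufaf4, Ndufv1 and Atp5l lie in the lower left and Cox5a, Atp5o, Ndufb5 and Sdha in the upper right in both batches.

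Genes that work with the chain were read from lists of the pathway. Of the 13 subunits encoded by mitochondrial DNA, 6 were listed at 1 value in all mice (mt-Atp6, mt-Atp8, mt-Co2, mt-Co3, mt-Nd3 and mt-Nd4l) and could not be compared. None of the other 7 passed the test, and their median difference was 0.0482. That median was -0.0716 in the first flow-sort batch and 0.133 in the second, and 2 of the 7 genes had the same sign in both. The one with the smallest p was mt-Co1, a catalytic subunit of complex IV, at 0.127 (limma adjusted p = 0.459). Assembly factors outside the member list gave 0 of 40, with a median of 0.00039, and the smallest p belonged to the complex IV factor Coa4 at 0.129 (limma adjusted p = 0.130).

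Cytochrome c and the coenzyme Q pathway supply the mobile carriers of the chain. Of 14 genes 1 passed, Coq10b, whose protein binds coenzyme Q. It fell by 0.274 on the log2 scale after ozone (SE 0.0721, limma adjusted p = 0.0464). When mice were omitted one by one it missed the threshold 9 times out of 12, with adjusted p up to 0.111, and passed only without air mouse 5, air mouse 6 or ozone mouse 2. It also failed within each batch alone and after quantile normalization (limma adjusted p = 0.345), without the filter on low values (0.0658), with a variance trend (0.0674) and without ozone mice 1 and 6 (0.158). The tricarboxylic acid cycle gave 0 of 24, with its smallest p at Idh3b, a subunit of isocitrate dehydrogenase (0.119, limma adjusted p = 0.0915).

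Regulators of mitochondrial gene expression gave 0 of 19. The smallest p was that of Mterf1a, a mitochondrial transcription termination factor, with a difference of -0.130 (limma adjusted p = 0.0766, and 0.0481 without ozone mouse 3). Carriers, uncoupling proteins and superoxide removal gave 0 of 13, and Ucp3, an uncoupling protein homologue, differed by -0.179 (limma adjusted p = 0.173, and 0.0207 without ozone mouse 2). Import and membrane structure gave 0 of 28, with the cristae organizer Chchd3 at 0.113 (limma adjusted p = 0.0738). Chchd3 passed without the filter on low values (0.0457 as adjusted p). The mitochondrial ribosome gave 0 of 78, led by Mrps15 at 0.128 (limma adjusted p = 0.0805). With flow-sort batch left out of the model Mterf1a, Chchd3 and Mrps15 all passed, with limma adjusted p of 0.0452, 0.0398 and 0.0472. The cytosolic ribosome gave 0 of 90, led by Rpl28 at 0.101 (limma adjusted p = 0.335).

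The 5 members not tested were at the shared minimum in most mice: Ndufs6b and Cox7c-ps1 in 11 of 12, Ndufa11b and Cox8b in 10 and Cox6c2 in 8. Members had short transcripts, with a median longest transcript of 1082 bases against 2865 over all tested rows with a length. Across the 89 members with a length, Spearman's rho between length and difference was 0.018, given as a description over genes measured in the same libraries. Members lay on 19 chromosomes. Several have processed pseudogenes, and how shared reads were assigned is not given in the sources used here.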

How the data were processed

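RNA-seq values came from 12 flow-sorted alveolar macrophage samples, 1 per mouse, grouped by the labels. The authors deposited 1 table on a log2 scale that is variance-stabilized and batch-corrected per its file name. The submitters' processing notes name cutadapt, STAR 2.7.7a, Salmon 1.5.2, DESeq2 1.26.0, R 3.6.0, limma 3.42.2 and mm10, without their roles. Of its 55291 rows 29847 were constant (tolerance 1e-09). The mean of the air mice and the difference between batch means were 0 in every row. Absolute abundance is therefore lost, and differences of genes with few reads are compressed. All columns matched 1 sample each.

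From these values differences were estimated by limma (version 3.58.1, under R 4.3.3). The model held exposure and flow-sort batch, without a variance trend, and covered rows with at least 6 of 12 mice above the shared minimum of their batch. Tests were two-sided, with Benjamini-Hochberg adjustment over all 19633 tested rows and a threshold of 0.05. The procedure was tried on simulated data in which genes varied independently of each other. Shifts shared by many genes of a mouse, as seen here, were not simulated, so that trial does not bear on them. Mice were treated as replicates. Genes named were the largest positive and negative difference in each complex, any called member, all isoform pairs and the smallest p in each other list. Ndufaf8 and Sdha were named after their values were seen, because their groups did not overlap. Members and lists were chosen with earlier results of these data known. Alternatives covered the filter, the prior, covariates, scaling, a replicate block, single batches, mice left out and an exact permutation test over 924 assignments. Leaving out ozone mice 1 and 6 together was added after seeing the data. Transcript lengths came from GENCODE M21 and promoters from RefSeq.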

Additional observations from a re-analysis of the deposited data

How the results depend on the processing

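No respiratory chain gene passed the test under any of the 24 alternatives to the model described. The number of all rows called moved more: 90 in the first batch alone, 0 in the second, 171 after quantile normalization, 460 without ozone mice 1 and 6, and 538 to 751 when single mice were left out. With single mice left out the median over members ran from -0.00902 to 0.0553. By complex it ran from -0.00858 to 0.0554 for complex I, -0.0288 to 0.0000600 for the assembly factors, 0.0683 to 0.106 for complex II, -0.00643 to 0.0365 for complex III, -0.00347 to 0.0418 for complex IV and -0.0110 to 0.0572 for complex V. The sign turned in the first batch for Cox6b1 (0.00915), Cox7a2 (-0.00849) and Ndufaf3 (-0.00656), in the second for Sdhd (-0.0150), and without ozone mice 1 and 6 for Cox7a2 (-0.00469) and Ndufaf3 (-0.0150). Without single mice it turned for Cox4i2 (-0.0348 to 0.0112), Cox6b1 (-0.0602 to 0.0287), Cox6b2 (-0.0283 to 0.0517), Cox7a2 (-0.0314 to 0.0332), Ndufa4 (-0.0185 to 0.0410), Sdhd (-0.0133 to 0.0807) and Uqcrc2 (-0.0690 to 0.00137). The causes were not tested. Same-numbered mice correlated at -0.00263 to 0.284, over 0.1 in 4 of 6 pairs, and 3 of 6 ozone mice matched their own number best. Whether the numbers pair mice was not tested, and the main model held no pairing. With the replicate block 0 members passed and the median was 0.0232. The exact permutation test, which also ignores the batches, gave no adjusted p below 0.0612 for any row of this table, so it bears on no call. Without read totals, the depth behind each value is unknown.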
